A study of Mus musculus with 8 samples.

Results

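At 315 genomic regions, of 28843 in all (1.09%), a peak of histone H3 asymmetrically dimethylated on arginine 17 (H3R17me2a) was called in both Carm1 knockout libraries and in neither control library of mouse cardiomyocytes. The regions were selected on those calls alone: peaks of the 4 deposited lists on chromosomes 1 to 19, X and Y were merged where they shared 1 bp or more, and a merged region was kept if knockout 1 and knockout 2 both had a peak in it and control 1 and control 2 had none. Presence in the knockouts and absence from the controls is therefore how the regions were chosen and not a result. The comparison used throughout is with the regions exclusive to each of the 4 mixed pairs of libraries, each of which joins a control with a knockout: knockout 1 had 441 such regions with control 1 and 222 with control 2, and knockout 2 had 940 and 450. The control pair had 700 exclusive regions.

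Every mouse was Carm1 fl/fl, so that the controls carried the floxed alleles too. The knockout group was injected with AAV-CRE and the control group with AAV-GFP, both adeno-associated viruses (AAV9), on postnatal day 1. Each group had 2 ChIP libraries with an input library each, and the inputs have no peak list of their own. Hearts were mosaic, and nuclei were sorted for PCM1, a protein of the cardiomyocyte nuclear surface, and not for infection, so uninfected cardiomyocytes may be part of the knockout libraries. At a region, a difference in the number of nuclei with the mark and a difference in mark per nucleus cannot be told apart. The virus promoter, the strain, the age at harvest and whether replicates were separate animals are not stated in the labels.

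Carm1 is a protein arginine methyltransferase that acts as a transcriptional coactivator, and arginine 17 of histone H3 is one of its substrates. The mark is known from promoters and enhancers of active genes, where Carm1 is recruited by nuclear receptors and other transcription factors. Cre recombinase deletes the floxed part of the gene, but methylated histones already in chromatin are lost only by turnover or removal.

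The 315 regions covered a transcription start of the promoter table at a single position, and that promoter is shown here because the called region lies over the start itself. A230004M16Rik, a long non-coding RNA gene, starts at base 251 of the window chr11:41710094-41710393 (plus strand, RefSeq, GRCm38.p6, the assembly of mm10), written 5′ to 3′ with the bases inside the called region (chr11:41710114-41710472) in capitals:

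A230004M16Rik promoter: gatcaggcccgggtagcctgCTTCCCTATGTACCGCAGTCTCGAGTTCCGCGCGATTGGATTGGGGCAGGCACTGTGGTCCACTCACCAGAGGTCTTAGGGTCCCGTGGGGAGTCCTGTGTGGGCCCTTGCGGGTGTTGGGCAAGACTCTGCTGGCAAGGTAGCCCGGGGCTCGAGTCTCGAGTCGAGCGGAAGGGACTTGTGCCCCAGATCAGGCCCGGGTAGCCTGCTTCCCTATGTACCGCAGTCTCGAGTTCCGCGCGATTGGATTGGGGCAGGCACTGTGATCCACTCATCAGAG

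The region covered 280 of the 300 bases. It was called at 4.93-fold over 7 fragments in knockout 1 and 5.85-fold over 7 fragments in knockout 2, and the nearest control peak lay 4.23 kb away. GC content of the window was 62.7%, above that of 76.9% of the 32851 promoter windows in the table (median 52.7%), and it held 19 CpG dinucleotides against a median of 7. Its first 77 bases recur exactly from base 209 onwards, that is 208 bases downstream. A repeated stretch at least that long was held by 0.158% of promoter windows (median 9 bases). Of 4 motifs searched on both strands, the window held CCAAT, as 37.4% of all windows did, inside the repeated stretch. It did not hold TATAAA (13.6% of windows), GGGCGG (35.7%) or AGATAA (11.2%). Whether reads aligned uniquely in the repeat was not tested.

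The 315 regions were weak in both libraries, as most peaks of these lists were. Fold enrichment, the ratio (n + 1)/(b + 1) of n fragments at a peak's summit to b of local background, ranged from 3.20 to 17.1 in knockout 1 (median 5.60) and from 3.76 to 16.1 in knockout 2 (median 5.85). The summit held a median of 9 fragments in knockout 1 and 8 in knockout 2, and in 209 regions (66.3%) neither library had more than 10. Across the mixed pairs that share ran from 65.3% to 77.8%. Over all peaks of a list, the medians were 5.54-fold and 8 fragments in knockout 1, and 5.66-fold and 7 fragments in knockout 2. A single region reached 10-fold in both knockouts, 29 reached it in either, and 68 had a −log10 q, the peak caller's adjusted significance, of at least 5 in both. Folds and q-values are the authors', and each is relative to the local background used for its own list. Settings are not given, so whether the ChIP library or its input supplied that background is not known. Total read numbers per library are not in the lists. At this depth a control library without a call need not lack the mark: the weakest of the 315 regions were called on 6 fragments in knockout 1 and 5 in knockout 2.

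**Figure D1:**
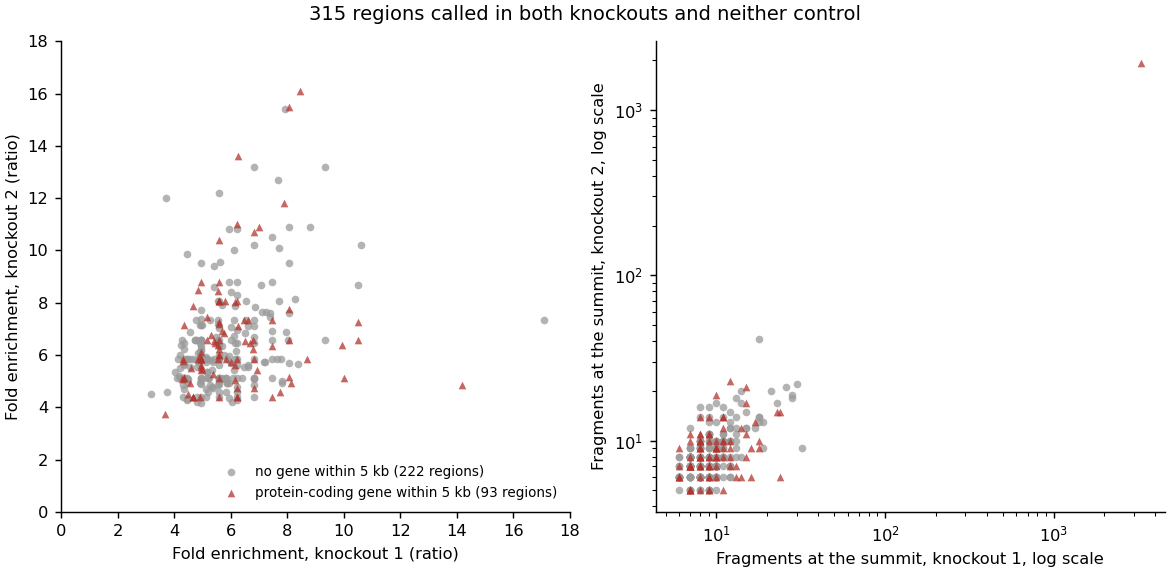
Fold enrichment (left, ratio) and fragments at the summit (right, log scales) of the 315 regions in knockout 1 (horizontal) and knockout 2 (vertical), 1 point per region. Red triangles are the 93 regions within 5 kb of a protein-coding gene and grey circles the other 222; nearly all points sit under 20 fragments, and the point at 3318 and 1935 fragments is Chl1.

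The knockouts ranked these regions alike only in part. Over the 315 regions, which share their libraries, the fragment numbers of the knockouts had a Spearman correlation of 0.47, against 0.27 to 0.43 over the regions of mixed pairs and 0.37 over those of the control pair. The summits of the knockout peaks lay a median of 124 bp apart (mixed pairs 105 to 134 bp), within 50 bp in 75 regions and over 200 bp apart in 96. The merged regions had a median width of 488 bp (mixed pairs 438 to 505 bp), and the knockout peaks shared a median of 228 bp.

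The number of regions was inside the range of the mixed pairs once list length was taken into account. The lists came to 4905 regions for knockout 1, 9433 for knockout 2, 12870 for control 1 and 8657 for control 2. Per 1000 regions of the shorter list, the knockout pair had 64.2 exclusive regions, the mixed pairs 45.3 to 99.7 and the control pair 80.9. Of the regions that knockout 1 shared with a single other list, 45.1% were shared with control 1, 32.2% with knockout 2 and 22.7% with control 2. For knockout 2 these shares were 55.1% with control 1, 26.4% with control 2 and 18.5% with knockout 1. Both knockouts thus had more exclusive regions in common with control 1, the longest list, than with each other, before scaling by the partner's list length. Per 1000 regions of the partner's list, knockout 1 had 34.3 with control 1, 33.4 with knockout 2 and 25.6 with control 2. On the same scale knockout 2 had 73.0 with control 1, 64.2 with knockout 1 and 52.0 with control 2. In all, the knockouts shared 1379 regions, of which the 315 are 22.8%; of the rest, control 1 alone also called 326, control 2 alone 136 and both controls 602. The absence of control calls depends on both control lists: without control 1 the knockouts shared 638 regions that control 2 had not called, and without control 2 they shared 446.

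The boundary of the rule was a matter of a few bases at some regions. The nearest control peak began 5 bp from chr5:52901678-52902088, a region outside genes whose closest gene is Anapc4, which encodes a subunit of the anaphase-promoting complex. That control 1 peak had 4.62-fold enrichment, and the knockout peaks 6.24- and 5.61-fold. The next were 8 bp from chr3:119550505-119550867, 118 kb from its closest gene, Dpyd, and 16 bp from chr1:108407095-108407340, 798 kb from its closest gene, Serpinb8. Just outside the rule, chr4:21650559-21651530 was not counted because a control 1 peak of 6.14-fold shared 2 bp with the knockout peaks (4.55- and 5.17-fold).

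Many regions had a control peak close by, although none overlapped. A control peak lay within 1 kb of 80 regions (25.4%), within 5 kb of 153 (48.6%, 95% Clopper-Pearson interval 42.9 to 54.2) and within 50 kb of 227 (72.1%). Measured the same way, from the nearest peak of the libraries that did not call the region, the mixed pairs had 35.6% to 44.0% within 5 kb and the control pair 35.9%. The knockout pair's share was the highest of the 6. Its interval overlapped those of 3 mixed pairs, control 1 with knockout 1 (39.3 to 48.8), control 2 with knockout 1 (31.4 to 44.6) and control 2 with knockout 2 (36.7 to 46.0), but not that of control 1 with knockout 2 (32.6 to 38.8) or of the control pair (32.3 to 39.5). Among peaks with a −log10 q of at least 5 it was no longer the highest: 16.2% for the knockout pair, 9.23% to 17% for mixed pairs and 9.48% for the control pair. The number of peaks that could be near differed between pairs: the control lists hold 21732 peaks, and the lists set against the mixed pairs 13722 to 22521. In lists cut to equal length the share was 27.7% for the knockout pair, 19.4% to 26.6% for mixed pairs and 25.2% for the control pair. Intervals cover counting error only, and regions of a pair come from the same libraries, so no p-value is given over regions.

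In the 153 cases the nearest control peak had a median of 5.53-fold enrichment over its own background (lowest 3.32, highest 11.5), a value not comparable with the knockout folds, and it belonged to control 1 in 96 and to control 2 in 57. The median distance to a control peak was longer for regions with more fragments, but the share within 1 kb changed little. Of the 83 regions in which the lower of both fragment numbers was 5 or 6, 59.0% had a control peak within 5 kb (47.7 to 69.7), and the median distance was 3.04 kb. The share was 48.2% of the 137 regions with 7 or 8 fragments and 37.0% of the 54 with 9 or 10. Of the 41 with at least 11 fragments in both knockouts, 43.9% did (28.5 to 60.3), with a median distance of 14.6 kb, and the intervals of the extremes overlapped. From the fewest fragments to the most, the shares within 1 kb were 26.5%, 26.3%, 20.4% and 26.8%.

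The regions farthest from any control call lay in or near genes. The farthest was in Igsf5, an immunoglobulin superfamily gene, at chr16:96375959-96376385, where the nearest control peak was 571 kb away. Enrichment there was 6.22-fold in knockout 1 and 11-fold in knockout 2, over 9 and 14 fragments. Next came Tln2, the gene of talin 2, which links integrins to actin, 409 kb from a control peak, and a region 4.66 kb from the olfactory receptor gene Olfr532 (chr7:140424431-140424684), 406 kb from one.

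The regions lay mostly outside genes. Of the 315, 82 (26.0%, 21.3 to 31.2) overlapped the span of a protein-coding gene, and 93 (29.5%) lay in or within 5 kb of one. The share inside genes was 28.0% to 34.7% for mixed pairs and 27.7% for the control pair, and the intervals overlapped. Among peaks with a −log10 q of at least 5 the knockout pair's 29.9% was not the lowest of the 6, with 28.7% for control 1 with knockout 2. The knockout pair's share was the lowest in lists of equal length (27.1%), under 50% reciprocal overlap of peaks (22.2%) and among peaks of 250 bp or wider (25.9%). More than 100 kb separated 122 regions (38.7%, 33.3 to 44.4) from any protein-coding gene, against 31.1% to 33.6% for mixed pairs and 31.6% for the control pair (28.1 to 35.2). That interval overlapped those of all mixed pairs and of the control pair, and the share was not computed under the alternative settings. Of the 122 regions, 31 were over 500 kb and 11 over 1 Mb away. The most remote, chr8:51712053-51712518, lay 1799 kb from Aga, the gene of a lysosomal glycoprotein hydrolase, and had 4.97- and 5.12-fold enrichment. Spans were used without exons, so exonic and intronic positions were not assigned.

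**Figure D2:**
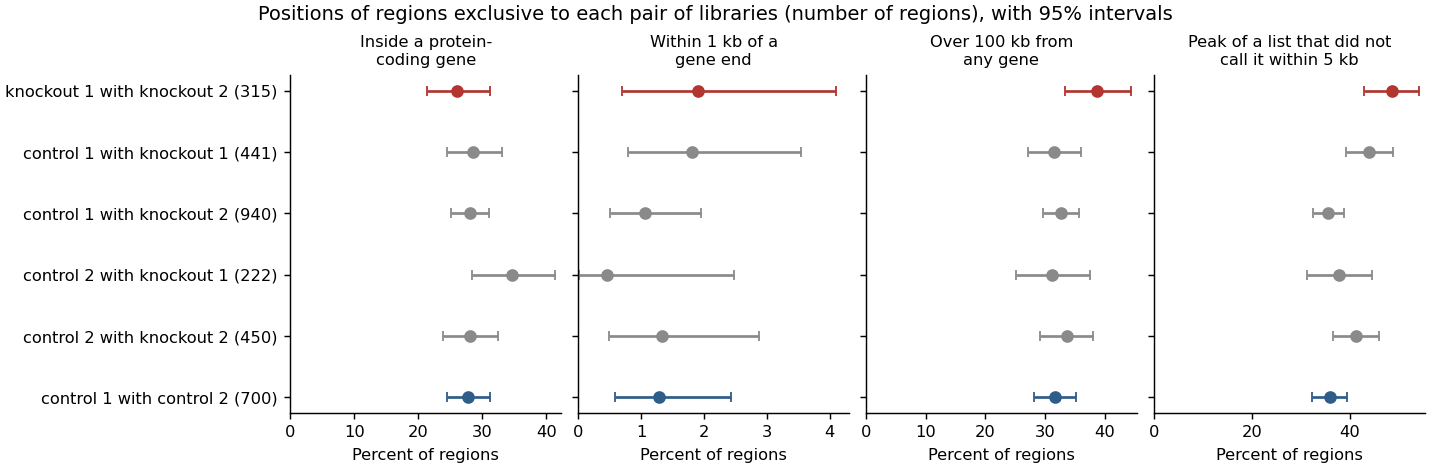
Percent of the regions exclusive to each pair of libraries (rows, with the number of regions) that lie inside a protein-coding gene, within 1 kb of a gene end, over 100 kb from any gene, or within 5 kb of a peak of the lists that did not call them. Points are shares and bars 95% Clopper-Pearson intervals; the knockout pair (red) has the lowest share inside genes, 26.0%, with an interval that overlaps those of all mixed pairs (grey), and the highest share near another peak, 48.6%, with an interval above those of control 1 with knockout 2 and of the control pair.

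Gene ends were rarely involved. Within 1 kb of either end of a protein-coding gene lay 6 regions (1.90%, 0.702 to 4.10), where mixed pairs had 0.450% to 1.81%. They were at Serpinb1c, Serpina1c, the predicted genes Gm51571, Gm40369 and Gm52030, and the gene pair Bccip and Uros. Serpinb1c, a serine protease inhibitor gene, had a region 0.466 kb upstream of its annotated start (chr13:32941066-32941524, 6.51- and 6.52-fold, 10 and 8 fragments), and the nearest control peak was 234 kb away. In Serpina1c, an alpha-1 antitrypsin gene, the region lay 0.381 kb downstream of the start (chr12:103904289-103904569, 5.54- and 8.44-fold, 8 and 11 fragments), 106 kb from a control peak. For Gm51571 the region was 0.697 kb upstream (chr8:55113785-55114232, 6.15- and 5.62-fold, 17 and 13 fragments), and it also lay 4.19 kb from Gm51572; control peaks were near, at 2.42 kb. The region in Bccip, which encodes a BRCA2-interacting protein, also lay 0.233 kb from Uros, a haem synthesis gene (chr7:133710700-133711129, 4.60- and 5.49-fold, 12 and 9 fragments). In Gm52030, a gene of 1.40 kb, the region was chr13:99085839-99086280 (5.60- and 8.05-fold, 8 and 10 fragments), and it also overlapped the non-coding 2310020H05Rik.

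Through the 93 regions, 96 protein-coding genes (0.439% of 21887) were linked, that is, overlapped within their span or 5 kb on either side. Of the mixed pairs, those of control 1 linked 0.685% of genes with knockout 1 and 1.27% with knockout 2, and those of control 2 linked 0.388% and 0.640%. Of the 96 genes, 25 (26.0%) were linked to a region of some mixed pair too, and these are 4.27% of the 586 genes of mixed pairs. Of the genes of control 1 with knockout 1, 10 (6.67%) were among the 96, and so were 12 of those of control 1 with knockout 2 (4.32%). The pairs of control 2 had 4 in common with the 96 through knockout 1 (4.71% of that pair's genes) and 2 through knockout 2 (1.43%), and the control pair had 8 (3.69%). The pairs share libraries, so these overlaps are a description. Dlg2 was linked in 3 of the 4 mixed pairs and in the control pair.

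Linked genes were long, and most had control peaks elsewhere. Their median span was 104 kb, against 17.2 kb for all protein-coding genes and 108 to 154 kb for the genes of mixed pairs, and 49 (51.0%) exceeded 100 kb, as 11.1% of all genes do. A control peak at another position of the linked span was found in 68 of the 96 genes (70.8%, 60.7 to 79.7), in 41 of them from both controls. This share was 64.0% to 69.3% for mixed pairs and 60.8% for the control pair, and it moved to 55.4% in lists of equal length. The 68 genes had a median length of 163 kb and the 28 without a control peak 54.5 kb.

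**Figure D3:**
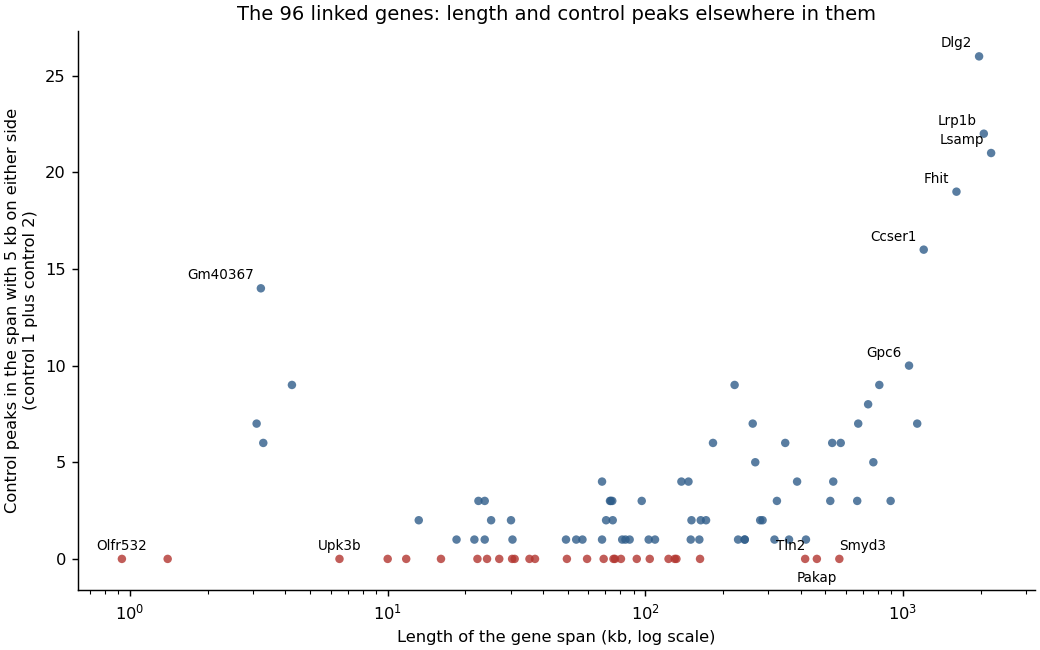
Length of the span of each of the 96 linked genes (horizontal, kb, log scale) and the number of control peaks in that span with 5 kb on either side (vertical, control 1 plus control 2). Red points are the 28 genes with no control peak; Dlg2, Lrp1b, Lsamp, Fhit and Ccser1, each over 1000 kb, hold 16 to 26.

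In the genes whose strand the promoter table gives, 62 regions lay inside a span. Their median distance from the nearest annotated start was 32.8 kb, 49 were over 10 kb away and 14 over 100 kb. When each gene was cut into 3 equal parts in the direction of transcription, 21 regions fell in the part with the start, 26 in the middle and 15 in the last part.

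Genes of cell adhesion and guidance first described in the nervous system held 6 linked genes of 153, and the mixed pairs had 4 to 10. Of all protein-coding genes 0.439% were linked, the share to set beside this and the later list counts. List counts are not scaled to the genes each pair linked, 96 for the knockout pair and 85 to 278 for mixed pairs. Chl1 encodes a member of the L1 family of adhesion molecules, and its region was the highest-ranked of all by the lower of its percentiles of −log10 q within both lists. It stood apart from the rest by its depth: chr6:103649062-103649277 had 3318 fragments over a local background of 903 in knockout 1 (3.67-fold) and 1935 over 514 in knockout 2 (3.76-fold). Its knockout summits were 2 bp apart. Chl1 held other peaks in the controls, 6 in control 1 and 3 in control 2, the nearest 67.1 kb away. The median local background of the 315 regions was 0.668 fragments in knockout 1 and 0.398 in knockout 2, and the part of the Chl1 background in its call was not tested.

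Lsamp and Opcml encode GPI-anchored adhesion proteins of the IgLON family. The Lsamp region (chr16:41492458-41493062, 6.16- and 5.03-fold) lay 1.67 kb from a control peak in a gene of 2197 kb with 15 in control 1 and 6 in control 2. The Opcml region (chr9:27975464-27975874, 4.97- and 8.78-fold) lay only 0.102 kb from a control peak. Adgrb3 and Adgrl3 encode adhesion G protein-coupled receptors. The region in Adgrb3 (chr1:25120221-25120583) had 6.70- and 6.46-fold enrichment and that in Adgrl3 (chr5:81382395-81382714) 4.29- and 5.09-fold on 6 fragments in each knockout, 0.437 kb from a control peak. Unc5d, a netrin receptor gene, had 5.32- and 6.77-fold enrichment at chr8:28970249-28970928. All 6 genes held peaks in both controls at other positions.

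Scaffolds of cell junctions and the cortical cytoskeleton gave 4 of 69 (mixed pairs 1 to 8). Mpp7, a membrane-associated guanylate kinase that organises epithelial junctions, had one of the higher enrichments, 8.08-fold in knockout 1 and 15.5-fold in knockout 2 (chr18:7608898-7609760, 12 and 23 fragments). The knockout summits in Mpp7 were 657 bp apart. Epb41l2, a band 4.1 protein gene that ties membrane proteins to spectrin and actin, had 6.83- and 10.7-fold enrichment (chr10:25474766-25475593, 11 and 14 fragments), with 2 other peaks in control 2 and 0 in control 1. Dlg2, a synaptic scaffold gene of 1973 kb, had 4.35- and 5.12-fold enrichment (chr7:90706919-90707535) beside 16 peaks in control 1 and 10 in control 2. Tln2, also the 1 member of 35 disc and costamere genes (mixed pairs 1 to 6), had 5.79-fold in knockout 1 and 8.05-fold in knockout 2 at chr9:67571618-67572039, over 12 and 10 fragments. The knockout peaks there (67571618-67571838 and 67571821-67572039) overlapped only at their edges, with summits 220 bp apart. In 417 kb of Tln2 neither control had a peak; knockout 1 had another, of 10.6-fold over 16 fragments. Patj, a scaffold of the Crumbs polarity complex that is outside the list, had 6.81- and 6.22-fold enrichment (chr4:98530096-98530553).

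Signalling genes included 4 of 238 in the kinase list (mixed pairs 0 to 5) and 2 of 66 in cyclic nucleotide signalling (0 to 1). The control pair had 7 and 2. Dstyk, a dual-specificity protein kinase gene, had 10.5-fold in knockout 1 and 7.28-fold in knockout 2 over 16 and 9 fragments (chr1:132421400-132421829), 3.95 kb from its start, and neither control had a peak in Dstyk. Camk4, a calcium/calmodulin-dependent kinase gene, had 4.97- and 5.62-fold (chr18:33011502-33011931), 2.02 kb from a control peak. Dyrk1b, another kinase gene, had a region 4.58 kb outside its span (chr7:28202494-28202894, 4.97- and 5.85-fold). Prkar2b, which encodes a regulatory subunit of protein kinase A and is no kinase itself, had 5.17- and 6.58-fold (chr12:32029054-32029533). Pakap, the locus of a protein kinase A anchoring protein, ranked 7 of all regions with 7.90-fold in knockout 1 and 11.8-fold in knockout 2 over 15 and 17 fragments (chr4:57811077-57811685), and its 463 kb held no control peak. Adcy3, an adenylyl cyclase gene that makes cyclic AMP, had 6.22- and 5.85-fold (chr12:4152420-4152873) and no control peak either. Smyd3, a lysine methyltransferase gene of 566 kb that is outside the chromatin list, was the longest linked gene without a control peak (chr1:179392402-179393052, 5.84- and 5.83-fold, 9 and 7 fragments).

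Of 122 matrix and proteoglycan genes, 2 were linked (mixed pairs 1 to 8). Gpc6, a glypican gene that encodes a heparan sulphate proteoglycan of the cell surface, held 2 of the regions. The stronger, chr14:117862039-117862398, had 7.46- and 7.32-fold enrichment over 11 and 9 fragments and lay 0.834 kb from a control 2 peak. The weaker, chr14:117540348-117540878, had 4.93- and 4.39-fold over 7 and 5 fragments. Along its 1055 kb knockout 1 had 5 peaks, knockout 2 had 6, control 1 had 7 and control 2 had 3, spread over the gene. Col25a1, a transmembrane collagen gene, had 5.60- and 6.58-fold (chr3:130508935-130509412), 265 kb from a control peak. Hs6st3, a heparan sulphate sulphotransferase gene outside the list, had 5.60- and 7.28-fold (chr14:119480504-119481421).

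The cilia list gave 3 of 126 (mixed pairs 1 to 2, control pair 3). Cfap74, a gene of motile cilia, had 7.01-fold in knockout 1 and 10.9-fold in knockout 2 over 11 and 14 fragments (chr4:155416222-155416740), and Dnah5, an axonemal dynein heavy chain gene, 4.33- and 5.77-fold (chr15:28258659-28259153). Spag9, which entered by its symbol and encodes a scaffold of JNK signalling, had 7.75- and 4.60-fold (chr11:94109550-94109935) and no control peak. Of 169 cell cycle and genome maintenance genes 2 were linked (0 to 2): Aven, an apoptosis inhibitor gene, with 5.76- and 6.83-fold over 24 and 15 fragments (chr2:112603702-112604142), and Fhit, at a known fragile site, with 5.60- and 6.01-fold over 8 and 8 fragments (chr14:10608606-10609307). Gria2, a subunit of AMPA glutamate receptors, was the 1 of 105 neurotransmitter receptor genes (1 to 4), with 5.54- and 5.83-fold at chr3:80742564-80743149 and no control peak in the gene. Olfr532, 5.60- and 8.05-fold as above, was the 1 of 1525 chemosensory receptor genes (1 to 4).

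Lists of cardiac genes held few linked genes, and at 0.439% of all genes linked, lists of this size would hold few in any case. The intercalated disc and costamere list had 1 of 35, Tln2 (mixed pairs 1 to 6). The count was 0 of 28 cardiac transcription factors, 0 of 40 sarcomere genes, 0 of 35 calcium handling genes and 0 of 10 fetal and stress genes, and the mixed pairs reached at most 1, 0, 2 and 0. It was also 0 of 319 mitochondrial genes (mixed pairs 0 to 4), 0 of 32 glycolysis genes (0 to 1), 0 of 172 chromatin and arginine methylation genes (0 to 2), 0 of 164 homeobox genes (0 to 1) and 0 of 113 cadherins (0 to 4). In 2 further lists, picked by their counts, every mixed pair had a link and the knockout pair had none. They were ion channels, 0 of 210 against 4 to 5 (control pair 2), and zinc finger genes, 0 of 473 against 1 to 4 (control pair 4). At 0.439% of all genes linked, these lists too would hold few, and the counts are not scaled to the genes each pair linked. None of the 12 cardiomyocyte markers was linked, nor any marker of fibroblasts (8), endothelium (8), smooth muscle and pericytes (6), immune cells (6) or neurons and glia (4), so the cardiomyocyte label could not be checked from these regions. Carm1 itself had no region: the nearest of the 12 on chromosome 9 lay 4713 kb away (chr9:16833898-16834228).

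The other genes of the 20 highest-ranked linked regions had 6.26- to 16.1-fold enrichment. Upk3b, a uroplakin gene of the urothelium and mesothelium, ranked next after Chl1 among them: its region, 3.35 kb outside the gene at chr5:136048340-136048666, had 8.46-fold in knockout 1 and 16.1-fold in knockout 2 over 15 and 21 fragments, and no control peak lay within 93.2 kb. Cpne5, a gene of a calcium-dependent membrane-binding copine, had 8.08- and 7.76-fold (chr17:29198129-29199023). Vps41, a subunit of the HOPS complex of lysosomal fusion, had 10.5- and 6.58-fold (chr13:18769555-18769946), and the tRNA-modifying enzyme gene Cdkal1 6.46- and 7.35-fold (chr13:29689512-29690469). The cytokine receptor gene Il23r had 6.60- and 7.32-fold at chr6:67494730-67495108, 2.88 kb outside it and 5.39 kb from a control peak. Atrnl1, an attractin-like gene, had 6.27- and 13.6-fold (chr19:57634280-57635374), and Wdr78, an axonemal dynein gene, 8.08- and 6.58-fold (chr4:103088344-103088787). In F13a1, the gene of coagulation factor XIII A (chr13:37038890-37039269, 6.26- and 7.11-fold), a control 2 peak was 0.209 kb away.

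**Figure D4:**
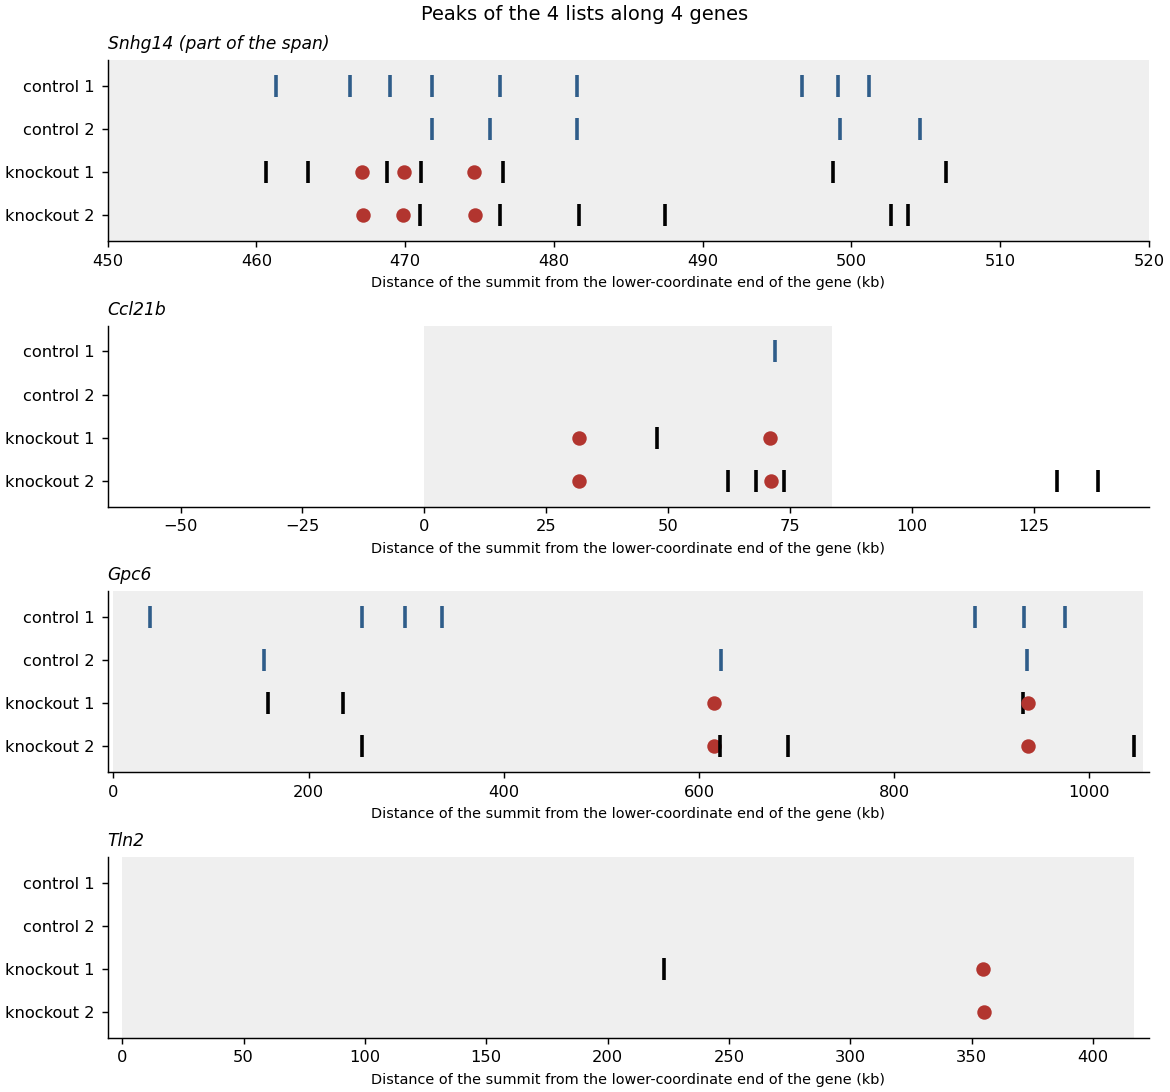
Summits of the peaks of the 4 lists along part of Snhg14 and along Ccl21b, Gpc6 and Tln2 (horizontal, kb from the lower-coordinate end of the gene; grey, gene span). Red circles are peaks of the 315 regions and bars are all other peaks (controls blue, knockouts black); around the regions in Snhg14 and Gpc6 the control lists hold peaks at neighbouring positions, while Tln2 holds none.

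Some regions came in runs. Within 100 kb of one another lay 17 regions in 7 runs. In Snhg14, the long host RNA of the imprinted Snrpn locus that carries arrays of small nucleolar RNA genes, 3 regions lay within 7.94 kb (chr7:59739687-59740050, chr7:59742267-59742981 and chr7:59747315-59747627) and another at chr7:59885540-59886032. Their enrichment was 4.17- to 4.96-fold in knockout 1 and 5.07- to 7.38-fold in knockout 2, over 10 to 15 fragments. Along Snhg14 knockout 1 had 16 peaks, knockout 2 had 18, control 1 had 20 and control 2 had 9, and control peaks lay 0.476, 0.389, 0.528 and 3.96 kb from the 4 regions. The local background there, 1.61 to 2.36 fragments in knockout 1, was above the commonest value of that list, 0.608.

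A second run was dense in calls of every list. Between chr6:47657703 and 47766465, among predicted genes, 3 of 46 regions were exclusive to the knockouts and 39 had a control peak. Knockout 1 had 32 peaks there, knockout 2 had 40, control 1 had 31 and control 2 had 30, with median backgrounds of 4.83, 2.90, 2.86 and 3.49 fragments. The first of the 3 (chr6:47657703-47658631) linked Gm40369 and Gm40367, with 4.51- and 4.50-fold. Of the 315 regions, 5 had a background of 5 or more fragments in either knockout: Chl1, a pair in this run, and single regions on X and Y.

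The remaining runs had few or no control peaks between their members. Ccl21b, a chemokine gene that guides lymphocytes and dendritic cells to lymph nodes, held 2 regions, chr4:42204643-42204900 (6.16- and 8.02-fold) and chr4:42243908-42244365 (4.97- and 5.53-fold). None of the 5 merged regions from the first to the second had a control peak, and a control 1 peak of 5.71-fold lay 0.583 kb past the second. This locus is one of near-identical gene copies, so reads of one copy may have been placed on another; that was not tested. On chromosome 13 the Serpinb1c region and one 3.22 kb from Serpinb6b, a paralogous inhibitor gene (chr13:32952873-32953589, 4.84- and 5.85-fold), together spanned 12.5 kb, with the nearest control peak 234 kb off. On chromosome 9, 161 to 164 kb from Abhd5, a gene of triglyceride breakdown, 3 regions within 3.19 kb (chr9:122542710-122543881, chr9:122544361-122544745 and chr9:122545301-122545903) had 4.90- to 7.12-fold enrichment in knockout 1 and 6.11- to 7.90-fold in knockout 2, and a control peak lay 1.16 kb from the first. Pairs of regions also lay at chr4:9989795-10004352, 127 kb or more from Gdf6, and at chr13:50020617-50084015.

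By chromosome, 29 regions (9.21%, 6.25 to 13) were on chromosome 4 and 26 (8.25%, 5.46 to 11.9) on chromosome 7. Mixed pairs had 2.70% to 5.22% on chromosome 4 and 4.99% to 5.78% on chromosome 7, the control pair 6.86% and 4.43%, and all merged regions 5.89% and 5.68%. On chromosome 4 the interval overlapped those of control 1 with knockout 1 (3.33 to 7.72) and control 2 with knockout 2 (2.74 to 6.78), and lay above those of control 1 with knockout 2 (3.33 to 6.11) and control 2 with knockout 1 (0.998 to 5.79). On chromosome 7 it overlapped those of all 4 mixed pairs. In lists of equal length, chromosome 4 held 6.69% of the knockout pair's regions, 3.80% to 5.47% of those of mixed pairs and 7.35% of those of the control pair. The X chromosome had 18 regions (5.71%) and Y had 3. Chromosome 4 was chosen for mention after the shares were seen.

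**Figure D5:**
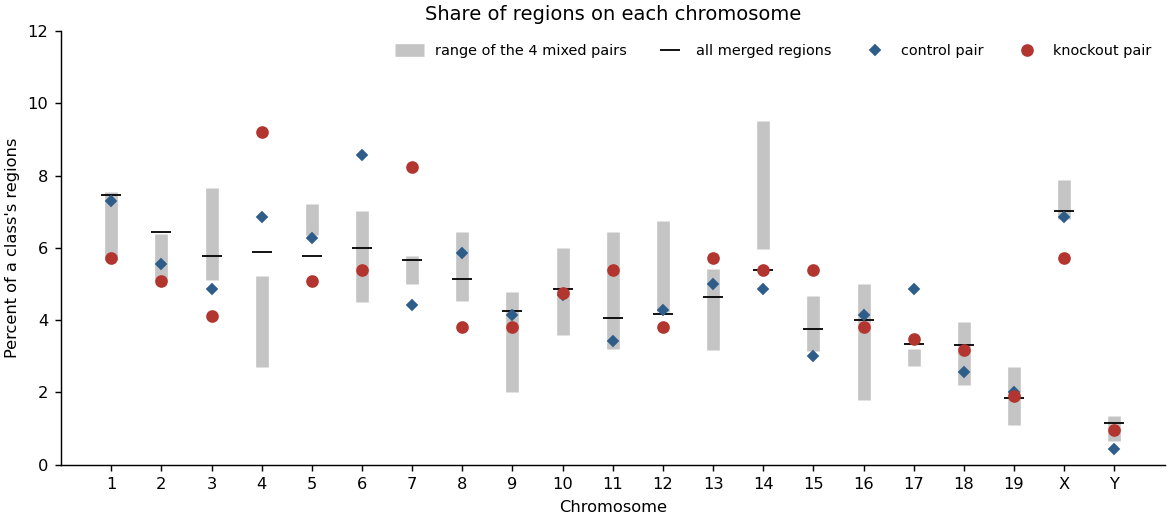
Percent of regions on each chromosome for the knockout pair (red circles), the control pair (blue diamonds), all merged regions (black dashes) and the range of the 4 mixed pairs (grey bars). The knockout pair is above the grey bar on chromosomes 4 (9.21%), 7 (8.25%), 13, 15 and 17, and below it on 2, 3, 5, 8, 12, 14 and X (5.71%).

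The genes not yet described are given with the position of their region, by chromosome. On chromosomes 2 to 4 these were Stam (chr2:14120212-14120565), an endosomal sorting adaptor, Hao1 (chr2:134506078-134506660), a peroxisomal oxidase, Lrp1b (chr2:42083636-42084332), a giant receptor of the LDL receptor family, Mnd1 (chr3:84147873-84148981), which acts in meiotic recombination, Nkain3 (chr4:20503987-20504882), Tmco4 (chr4:139027150-139027723) and Zyg11b (chr4:108285759-108286669), a substrate receptor of a ubiquitin ligase. The Lrp1b region (5.60- and 4.39-fold) lay 0.0930 kb from a control peak, in a gene of 2058 kb with 11 peaks in each control. The region in Zyg11b was 0.0190 kb from one.

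On chromosomes 5 to 8 the genes were Ccdc146 (chr5:21328235-21328715), the pair Aff1, a subunit of transcription elongation complexes, and Klhl8 on either side of chr5:103858642-103859132, Ccser1 (chr6:61979067-61979491), Agbl1 (chr7:76708793-76709253), a deglutamylase, Map6 (chr7:99297298-99298331), which stabilises microtubules, and Lonp2 (chr8:86681041-86681573), a peroxisomal protease. Ccser1, at 1203 kb, had 6.22- and 4.39-fold enrichment and Agbl1 4.35- and 5.12-fold, the latter 0.148 kb from a control peak. Lonp2 and Ccdc146 held no control peak.

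On chromosomes 9 to 12 they were Gask1a (chr9:121968776-121969468), a Golgi-associated protein, Syne1 (chr10:5090348-5090624), which encodes nesprin 1 of the nuclear envelope, Trmt11 (chr10:30572318-30573275), a tRNA methyltransferase, Man1a (chr10:53899786-53900150), a mannosidase of glycan processing, Sec14l2 (chr11:4100849-4101287), Gm29958 (chr11:63630822-63631614), Myo19 (chr11:84893672-84894129), a mitochondrial myosin, Ankfn1 (chr11:89554297-89554650), the pair Gen1 and Smc6 at chr12:11261400-11261768, Ttll5 (chr12:85867847-85868485), a glutamylase of tubulin, and Ahnak2 (chr12:112776419-112777371). Syne1 had 6- and 5.73-fold enrichment 0.230 kb from a control 1 peak, among 3 peaks in each control. The predicted gene Gm29958 had 14.2-fold in knockout 1 and 4.84-fold in knockout 2. Gen1, a resolvase gene, and Smc6, a gene of a DNA repair complex, shared a region of 4.31- and 5.85-fold over 6 and 7 fragments.

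On chromosomes 13 and 14 they were Aopep (chr13:63161894-63162320), an aminopeptidase, Ankrd31 (chr13:96859634-96860418), a meiotic protein, Aoah (chr13:20860860-20861326), which inactivates lipopolysaccharide, Xpo7 (chr14:70728009-70728616), a nuclear exportin, and 4 genes on the first 7 Mb of chromosome 14: Gm3239 (chr14:4665736-4666109), Gm3317 (chr14:5152679-5153270), Gm3373 (chr14:5731446-5732071) and Lamtor3-ps (chr14:6418010-6418394). Those 4 had 4.92- to 6.94-fold enrichment in knockout 1 and 5.42- to 6.52-fold in knockout 2. They belong to families of similar predicted genes, for which reads may be split among copies.

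On chromosomes 15 to 19 and X they were Rspo2 (chr15:43141662-43141906), an activator of Wnt signalling, 4932438H23Rik (chr16:91111467-91112220), Ip6k3 (chr17:27161969-27162406), an inositol phosphate kinase, Tmem232 (chr17:65463094-65463371), Nol4 (chr18:22964668-22965168), Exoc6 (chr19:37621994-37622444), an exocyst subunit, Cyp2c66 (chr19:39145755-39146374), a cytochrome P450, Sgms1 (chr19:32205804-32206253), a sphingomyelin synthase, Sorcs1 (chr19:50426537-50427026), a sorting receptor, Lipo3 (chr19:33595098-33595519), Gm14459 (chrX:8521520-8521832), Gm2012 (chrX:26204592-26205116) and Nhsl2 (chrX:101969064-101969379). Enrichment in 4932438H23Rik was 10-fold in knockout 1 and 5.12-fold in knockout 2. Sgms1 and Exoc6 had a control peak 0.226 kb and 0.622 kb away.

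Of the 222 regions linked to no protein-coding gene, the strongest in either library was chr11:20032276-20033274, 8.25 kb from Spred2, an inhibitor of Ras signalling, with 17.1-fold over 32 fragments in knockout 1 and 7.32-fold over 9 in knockout 2. It overlapped the non-coding Gm39603. The region that reached 10-fold in both knockouts was chr1:154022181-154022798, 112 kb from Glul, the glutamine synthetase gene, with 10.6- and 10.2-fold over 19 and 13 fragments; a control peak lay 0.111 kb from it. Other high-ranked regions were chr6:72046115-72046754, 50.8 kb from St3gal5 (8.81- and 10.9-fold), chr4:142272915-142273301, 33.5 kb from Kazn (9.33- and 13.2-fold, 184 kb from a control peak), and chr4:59556045-59557017, 6.67 kb from Ptbp3 (10.5- and 8.68-fold). Further ones, chosen after the values were seen, were chr5:101635779-101636222, 23 kb from Nkx6-1 (8.08- and 9.51-fold), chr2:45930436-45930941, with the closest gene, Zeb2, 813 kb away (8.29- and 8.14-fold), and chr7:131494461-131494752, 46.8 kb from Hmx3 (7.39- and 7.60-fold). Of the 315 regions, 36 overlapped a gene annotated as other than protein-coding, 29 of them outside the linked set. One was n-R5s120, a copy of the 5S ribosomal RNA gene in a tandem array on chromosome 8 (chr8:123572762-123573693), with 6.14- and 6.46-fold over 12 and 10 fragments and a control peak 0.365 kb away. Distances to genes are to the nearest annotated span and say nothing of which gene a region acts on.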

How the data were processed

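The authors deposited a MACS2 peak list for each of the 4 H3R17me2a ChIP libraries, called per library and not on pooled replicates, per the labels. Each peak has a deposited fold enrichment (a ratio), a −log10 p, a −log10 q and a display score that was not used. FastQC, MultiQC, Bowtie2, MACS2, DiffBind and mm10 are named in the submitters' processing notes, without settings.

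The most significant peak per library stood for a region. Fragments at a summit and the local background were solved from the deposited fold and Poisson −log10 p together (tolerance 0.01), which gave a whole number for 100% of peaks; the solver was tested on simulated data. Because lists differ in depth and background, folds were not compared between libraries. Genes are RefSeq spans of GRCm38.p6, with starts and strand for 17492 of 21887 protein-coding genes.

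The members, the 29 gene lists and the naming rule were chosen with earlier results of these data known. Named with values were the 20 highest-ranked linked regions (by the lower of both within-list percentiles of −log10 q), list members, genes with 2 or more regions, regions within 1 kb of a gene end, and those nearest to or farthest from a control peak. A gene that this rule names and a gene list are not reported here. No test was run, since the calls chose the regions and regions are not replicates. Alternatives were a −log10 q of at least 5, equal list lengths, 50% reciprocal overlap, merging across 200 bp, autosomes, peaks of 250 bp or wider, removal of high backgrounds, other distances and each library left out. Python 3.11.15, NumPy 2.4.6, SciPy 1.17.1 and pandas 2.3.3 were used.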

Additional observations from a re-analysis of the deposited data

How the results depend on the processing

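No paired analysis was possible because the results come from no test between groups. Of 72 comparisons with an alternative, 42 stayed within the interval of the reported share, or within 1.5 times the reported count, and 30 moved. The count of 315 was 117 when every peak, control peaks included, needed a −log10 q of at least 5. Of the 315 themselves, 68 had such a value in both knockouts, so the 117 are not a subset of them. The count was 446 to 6629 when a library was left out, where fewer lists have to be empty or filled. The share inside a protein-coding gene (26.0%) was 35.2% over all genes of the annotation and 26.6% to 31.2% without a library. The share within 1 kb of a gene end (1.90%) was 5.08% over all genes, 6.67% within 5 kb and 1.79% to 2.30% without a library. The share with a control peak within 5 kb (48.6%) was 16.2% with a −log10 q of at least 5, 40.3% with peaks of 250 bp or wider, 27.7% in lists of equal length, 65% with 50% reciprocal overlap, 25.4% within 1 kb, 72.1% within 50 kb and 26.0% to 36.1% without a library. The share of linked genes with a control peak elsewhere (70.8%) was 46.3%, 55.4% and 84.5% with a −log10 q of at least 5, equal lengths and 50% reciprocal overlap, and 53.5% to 59.3% without a library. The 64.2 exclusive regions per 1000 of the shorter list were 89.7, 53.4 and 73.1 with a −log10 q of at least 5, 50% reciprocal overlap and peaks of 250 bp or wider, 33.4 per 1000 of the longer list and 90.8 to 129 without a control; without a knockout there is no knockout pair. Under 50% reciprocal overlap, a control peak that overlaps a region by less does not exclude it and counts as nearby. The 65% and 84.5% can therefore include overlapping control peaks. Shorter lists leave fewer control peaks to lie nearby. Why the shares moved was not tested.

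Many of the calls rest on few fragments. In both knockouts, 209 of the 315 regions (66.3%, mixed pairs 65.3% to 77.8%) had 10 or fewer fragments at the summit. The total depth of each library is unknown, and its part in the calls was not tested. Input libraries were not analysed here, gene spans carry no exons, and the labels do not say how many animals each group had.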
